A study of Mus musculus with 16 samples.

Results

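The ER folding and unfolded protein response genes described here were 32 genes listed by symbol: 14 chaperones, disulfide isomerases and cochaperones of the endoplasmic reticulum (ER), 6 subunits of the translocation channel and its associated complex, 7 degradation components, and 5 stress sensors and transcription factors. All 32 symbols were found among the 49492 genes of the count table, and all 32 passed the filter on low counts, which left 15240 genes to be tested.

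The ER takes up nascent secretory and membrane proteins through the Sec61 channel, folds them with lumenal chaperones and disulfide isomerases, and returns proteins that fail to fold to the cytosol for degradation. When unfolded proteins accumulate, 3 membrane sensors, IRE1 (encoded by Ern1), PERK (Eif2ak3) and ATF6, signal to the nucleus: IRE1 splices the mRNA of the transcription factor XBP1, PERK phosphorylates eIF2α and so favours translation of ATF4, and ATF6 is itself released as a transcription factor. In B cells the pathway is best known for its expansion when the cells become antibody-secreting plasma cells, for which XBP1 is required.

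The libraries came from spleens of 3-month-old C57BL/6J mice that had been immunized with sheep red blood cells and were killed 8 days later, when germinal centres are present. Centroblasts, the dark zone cells, were sorted as B220+ FAS+ CD38- CXCR4+ CD86-, and centrocytes, the light zone cells, as B220+ FAS+ CD38- CXCR4- CD86+. Control mice were Cγ1-cre+/- and mutant mice were Ezh2(Y641F)fl/wt;Cγ1-cre+/-, so every mouse carried the Cre and the mutants carried in addition 1 conditional copy of Ezh2, the H3K27 methyltransferase, with the Y641F substitution found in lymphoma. There were 4 libraries for each combination of genotype and cell type, 16 in all, which the series' design text calls biological replicates.

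The Cre is driven from the Cγ1 immunoglobulin locus, which is transcribed in activated B cells, so recombination depends on cells having passed through that state, and the counts do not distinguish the mutant from the normal Ezh2 copy. Ezh2 itself was lower in mutants by -0.38 in centroblasts and -0.37 in centrocytes (adjusted p = 0.049 and 0.039, edgeR). All 16 libraries carry the same litter label. Libraries held 35230563 to 44466911 counts over genes, and in each group replicates 1 and 2 expressed Y-linked genes and replicates 3 and 4 did not. The sort genes followed their gates: Cxcr4 was lower in centrocytes by 1.17 (controls) and 1.32 (mutants) on the log2 scale and Cd86 was higher by 0.95 and 0.93. The 32 genes took 0.612% to 0.797% of each library's counts. Mutant centrocyte replicates 3 and 4 stood apart by macrophage transcripts: the summed level of 20 macrophage markers was 396 and 403 CPM (a gene's counts relative to the TMM-scaled library size) in them and 60.2 to 153 CPM in the remaining 6 libraries of centrocytes. For the 32 genes and the other pathway genes, calls in mutant centrocytes that were lost without these 2 are marked where the gene is described. For Ezh2, the sort genes and the markers of cell types this was not examined.

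Promoter sequences are shown first, because each of the 3 genes called higher in centrocytes carries an ER stress response element, the pair of sites through which NF-Y and ATF6 or XBP1 act on chaperone genes. RefSeq (assembly GRCm38.p6, the same build as mm10) gave a promoter window, reaching from upstream of the start to 50 bases after it, for 26 of the 32 genes. The element, written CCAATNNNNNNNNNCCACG and searched on both strands, was found in 9 of these 26 genes (34.6%), against 37 of all 27025 genes with a window of that length (0.137%). Because the element is known from chaperone genes, its share in a list of such genes is a description and no test. The matched letters of each, 5′ to 3′ on the strand of the gene with the fixed bases in capitals, were as follows.

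Hspa5 (chr2:34772025-34772043, plus strand): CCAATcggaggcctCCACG
Hsp90b1, distal (chr10:86705638-86705656, minus strand): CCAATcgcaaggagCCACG
Hsp90b1, proximal, reversed (chr10:86705533-86705551, minus strand): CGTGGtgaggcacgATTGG
Calr, reversed (chr8:84847075-84847093, minus strand): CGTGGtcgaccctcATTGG
Canx (chr11:50325800-50325818, minus strand): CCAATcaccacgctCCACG
Creld2, reversed (chr15:88819520-88819538, plus strand): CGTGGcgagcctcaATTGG
Pdia6 (chr12:17266491-17266509, plus strand): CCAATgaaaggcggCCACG
Dnajc3 (chr14:118937827-118937845, plus strand): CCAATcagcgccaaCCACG
Syvn1 (chr19:6046532-6046550, plus strand): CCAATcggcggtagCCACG
Derl3, reversed (chr10:75893242-75893260, plus strand): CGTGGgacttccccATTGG

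The bases upstream of the start are shown at more length for Eif2ak3, Derl3 and Hsp90b1, the genes with the lowest p between zones in controls, with any element in capitals. For Hsp90b1 the stretch ends where the longer GENCODE M21 gene begins, and for Hspa5, whose GENCODE gene begins upstream of its element, the element alone is shown.

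Eif2ak3 (chr6:70844265-70844514, plus strand): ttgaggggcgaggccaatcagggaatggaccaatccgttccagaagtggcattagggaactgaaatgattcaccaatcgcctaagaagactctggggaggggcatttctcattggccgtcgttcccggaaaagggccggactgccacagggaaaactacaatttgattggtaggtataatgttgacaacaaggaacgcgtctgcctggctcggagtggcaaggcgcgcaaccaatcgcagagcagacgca
Derl3 (chr10:75893148-75893397, plus strand): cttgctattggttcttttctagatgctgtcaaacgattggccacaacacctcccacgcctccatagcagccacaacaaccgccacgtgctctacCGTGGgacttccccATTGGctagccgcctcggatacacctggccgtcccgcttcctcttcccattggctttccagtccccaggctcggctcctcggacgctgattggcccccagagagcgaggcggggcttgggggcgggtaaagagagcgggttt
Hsp90b1 (chr10:86705510-86705694, minus strand): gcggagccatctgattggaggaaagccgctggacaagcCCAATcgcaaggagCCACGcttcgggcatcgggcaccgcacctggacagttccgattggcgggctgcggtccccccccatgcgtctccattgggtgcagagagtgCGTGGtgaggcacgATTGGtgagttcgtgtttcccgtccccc

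Counted from the RefSeq start, the element lay 65 to 47 bases before the start in Hspa5, 156 to 138 bases before it in Derl3, and at 212 to 194 and 107 to 89 bases before it in Hsp90b1. The Eif2ak3 window held none. The related element II, ATTGG and CCACG with 1 base between them, was found in 2 members, Dnajb11 and Herpud1 (7.69% of 26, against 0.0444% of all genes with a window). An XBP1 and ATF6 site, TGACGTGG, was found in 0 of the 26 and in 0.714% of all genes with a window. The composite ATF4 and C/EBP site, TGATGNAAN, was found in 1, Herpud1 (4.5% of all genes with a window). CCAAT alone, which lies within the first element, was found in 22 of 26 (41.1% of all genes with a window).

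Per kilobase of exon, the most abundant of the 32 over all 16 libraries was Calr, a calcium-binding lectin chaperone, with a mean of 264 CPM per kb. The disulfide isomerase Pdia3, its partner, followed with 186 CPM per kb and Hspa5 (BiP, the main HSP70 chaperone of the lumen) with 141 CPM per kb. Atf4 and Hsp90b1 (GRP94, the lumenal HSP90) came next with 123 and 110 CPM per kb. The lowest were the transcription factor Ddit3 (CHOP) with 7.08, the degradation factor Derl2 with 6.23, the BiP cochaperone Dnajb9 with 4.46 and the sensor Ern1 with 0.910 CPM per kb.

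Between the zones the 32 genes did not move as a block. In control mice 3 were higher in centrocytes (Derl3, Hsp90b1 and Hspa5) and 4 were lower (Eif2ak3, Sec61b, Derl1 and Atf4), in edgeR's quasi-likelihood test with Benjamini-Hochberg adjustment over all tested genes at 0.05. Of all 15240 genes, 14.9% were called higher and 12.9% lower in this comparison, 27.8% in either direction. The 7 of 32 called in this fit (21.9%) was not above the share among all genes, but that depended on the fit. With the replicate number as a block, 12 of 32 were called (8 higher, 4 lower). That share was above the share among all genes (2562 higher and 1944 lower of 15240). The numbers were not taken to pair the control zones. Libraries of the 2 groups did not overlap for 7 of 32 genes, the same 7 that were called without the block, against 27.7% of all genes. The median log2 difference of the 32 was 0.12, and 22 of 32 lay above 0.

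In mutant mice 3 were higher in centrocytes (Derl3, Hsp90b1 and Hspa5) and 2 were lower (Eif2ak3 and Atf4). Among all genes 8.92% were called higher, 7.07% lower and 16% in either direction. Libraries did not overlap for 5 of 32 genes (Derl3, Hspa5, Atf6, Eif2ak3 and Atf4), against 22.1% of all genes. The median of the 32 was 0.06. The 2 zone comparisons share no library.

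**Figure D1:**
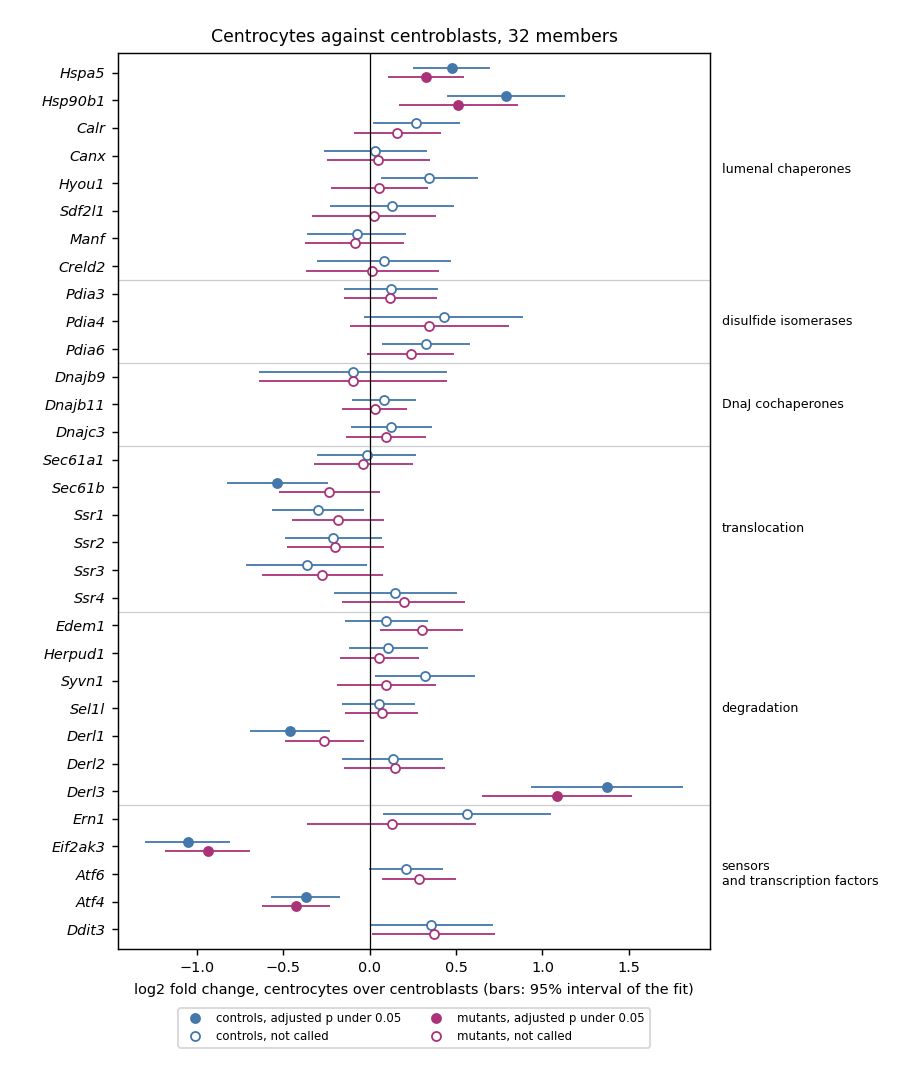
Log2 difference of each of the 32 genes between centrocytes and centroblasts (x axis) in controls (blue, upper) and mutants (purple, lower), grouped by role, with 95% intervals from the edgeR fit; filled points had an adjusted p under 0.05. Derl3 lies furthest to the right (1.37 and 1.08) and Eif2ak3 furthest to the left (-1.05 and -0.94).

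Derl3 (chromosome 10, 75893413 to 75895941, plus strand) encodes an ER membrane protein of the derlin family that takes part in degradation of misfolded glycoproteins and is induced through IRE1 and XBP1. Its level was 10.1, 17.8, 20.4 and 27.6 CPM in control centroblasts and 46.0, 40.7, 51.1 and 59.3 CPM in control centrocytes. Mutant centroblasts had 21.8, 19.2, 23.7 and 24.7 CPM and mutant centrocytes 52.4, 45.3, 46.3 and 45.5 CPM. Every centrocyte library was above every centroblast library in both genotypes. The difference was 1.37 ± 0.21 (log2, SE) in controls, 2.59-fold (adjusted p = 0.00013), and 1.08 ± 0.21 in mutants, 2.12-fold (adjusted p = 0.0014, edgeR). The call held with any 1 library left out and under all 13 other settings tried, in both genotypes.

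Hsp90b1 (chromosome 10, 86690209 to 86705509, minus strand) encodes GRP94, which folds immunoglobulins, integrins and Toll-like receptors. Control centroblasts had 282, 383, 379 and 311 CPM and control centrocytes 505, 544, 586 and 707 CPM. Mutant centroblasts had 337, 381, 417 and 255 CPM and mutant centrocytes 456, 407, 616 and 505 CPM. The groups were separate in controls, while in mutants centrocyte replicate 2 lay below centroblast replicate 3. The difference was 0.79 ± 0.16 in controls (1.73-fold, adjusted p = 0.0018) and 0.51 ± 0.16 in mutants (1.43-fold, adjusted p = 0.039, edgeR). Without mutant centrocyte replicates 3 and 4 the mutant value was 0.32 (adjusted p = 0.31), and the mutant call was also lost without mutant centroblast replicate 1, 2 or 4, control centrocyte replicate 3 or mutant centrocyte replicate 1, 3 or 4 singly (adjusted p 0.051 to 0.12). Of the exon bases of Hsp90b1, 15.7% are shared with other gene models.

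Hspa5 (chromosome 2, 34771970 to 34777547, plus strand) encodes BiP, which binds unfolded chains and keeps the 3 sensors inactive. Control centroblasts had 453, 466, 461 and 502 CPM and control centrocytes 666, 559, 643 and 748 CPM. Mutant centroblasts had 575, 562, 621 and 477 CPM and mutant centrocytes 678, 646, 738 and 739 CPM. In each genotype all centrocyte libraries were above all centroblast libraries. The difference was 0.48 ± 0.11 in controls (1.39-fold, adjusted p = 0.0029) and 0.33 ± 0.11 in mutants (1.25-fold, adjusted p = 0.042, edgeR). The replicate number was taken to pair the mutant zones, a pairing that cannot be told apart from sex. With that number as a block, the mutant value was 0.33 (adjusted p = 0.0501, edgeR). Without mutant centrocyte replicates 3 and 4 the mutant value was 0.25 (adjusted p = 0.23, edgeR). The mutant call was also lost in 9 of 16 fits with 1 library left out, those without control centroblast 2 or 3, mutant centroblast 1, 2 or 4, control centrocyte 3, or mutant centrocyte 1, 3 or 4 (adjusted p 0.057 to 0.14).

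**Figure D2:**
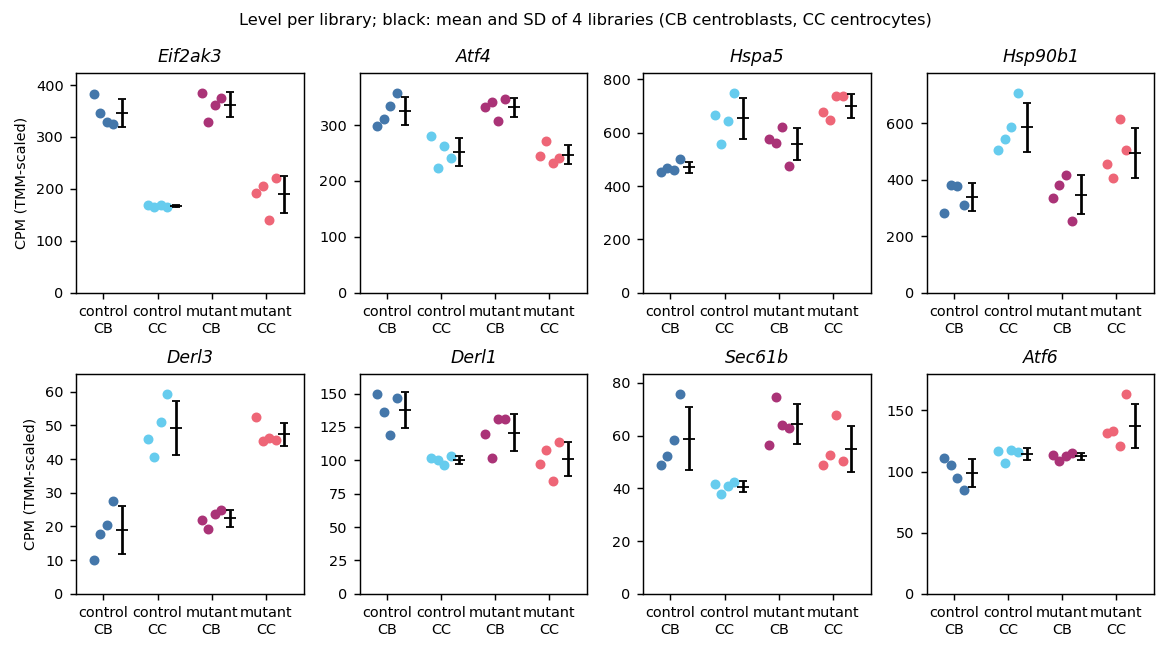
Level in CPM (y axis, from 0) of 8 genes in each of the 16 libraries, by group on the x axis (CB centroblasts, CC centrocytes); black bars are mean and SD of 4 libraries. Eif2ak3 and Derl3 separate the zones in both genotypes, and Sec61b and Atf6 are the genes whose control and mutant centrocyte libraries do not overlap.

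The other 6 lumenal chaperones did not pass the test in either genotype. Calr differed by 0.27 ± 0.12 in controls (adjusted p = 0.10) and 0.16 ± 0.12 in mutants, and Hyou1, an HSP70-related chaperone and nucleotide exchange factor of BiP, by 0.35 ± 0.13 (adjusted p = 0.063) and 0.06 ± 0.13. Canx (calnexin, the membrane-bound lectin chaperone) and the stress-induced lumenal proteins Sdf2l1, Manf and Creld2 had differences of -0.09 to 0.13 over both genotypes. The 3 disulfide isomerases lay above 0 in both: Pdia6 by 0.33 ± 0.12 in controls (adjusted p = 0.051) and 0.24 ± 0.12 in mutants, Pdia4 by 0.43 ± 0.22 and 0.35 ± 0.22 (0.34 in mutants with the replicate block, adjusted p = 0.045), and Pdia3 by 0.12 ± 0.13 in both. The cochaperones Dnajb9, Dnajb11 and Dnajc3, which stimulate BiP's ATPase, differed by -0.10 to 0.13.

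Without control centroblast replicate 4, which had the highest level of its group for several of these genes, 12 of 32 genes were called in controls, 7 higher and 5 lower. Of all 15611 genes tested in that fit, 2041 were called higher and 1797 lower. Leaving out a library that is highest in the lower group widens such a difference by itself. In that fit Calr, Hyou1, Pdia4 and Pdia6 were higher by 0.39, 0.45, 0.66 and 0.44 (adjusted p = 0.019, 0.021, 0.027 and 0.011, edgeR). The 14 chaperones, isomerases and cochaperones include Hspa5 and Hsp90b1, whose own libraries did not overlap between the control zones. The summed level of all 14 was 3160 to 3564 CPM in control centroblasts and 3865 to 4509 CPM in control centrocytes, which did not overlap. In mutants it was 3419 to 4349 CPM and 3886 to 4684 CPM, which overlapped.

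Eif2ak3 (chromosome 6, 70844515 to 70905245, plus strand), which encodes PERK, had the lowest p of the 32 in both zone comparisons. Control centroblasts had 384, 347, 328 and 326 CPM and control centrocytes 169, 165, 168 and 165 CPM. Mutant centroblasts had 384, 328, 362 and 375 CPM and mutant centrocytes 192, 205, 140 and 220 CPM. Every centrocyte library lay far below every centroblast library, and the 4 control centrocyte libraries lay closest together (167 ± 2.2 CPM, mean ± SD). Eif2ak3 was lower in centrocytes by -1.05 ± 0.12 (log2, 2.07-fold, adjusted p = 5.3e-06) in controls and by -0.94 ± 0.12 (1.91-fold, adjusted p = 2.5e-05, edgeR) in mutants. The call held with any 1 library left out and under all 13 other settings. Of the exon bases of Eif2ak3, 8.05% are shared with Gm43292, a gene model of its own, and the strand setting of the counting is not given in the sources used here.

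Atf4 (chromosome 15, 80255184 to 80257541, plus strand), the transcription factor translated when PERK or another eIF2α kinase is active, had 299, 311, 334 and 357 CPM in control centroblasts and 280, 223, 262 and 241 CPM in control centrocytes. In mutants it had 332, 341, 308 and 347 CPM in centroblasts and 246, 271, 231 and 241 CPM in centrocytes. The groups did not overlap in either genotype. It was lower in centrocytes by -0.37 ± 0.09 (adjusted p = 0.0074) in controls and -0.42 ± 0.09 (adjusted p = 0.0046, edgeR) in mutants. Without mutant centrocyte replicates 3 and 4 the mutant value was -0.35 (adjusted p = 0.067).

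The remaining 3 of the sensors and factors lay above 0 and did not pass the test. Ern1, which encodes IRE1α, had 6.07, 6.04, 7.29 and 7.74 CPM in control centroblasts and 6.53, 7.80, 13.6 and 12.1 CPM in control centrocytes, so the 2 zones overlapped. Its difference was 0.56 ± 0.23 in controls (adjusted p = 0.079) and 0.13 ± 0.23 in mutants. Atf6 differed by 0.21 ± 0.10 (adjusted p = 0.14) and 0.29 ± 0.10 (adjusted p = 0.064), and in mutants its centrocyte libraries (132, 134, 121 and 163 CPM) were all above its centroblast libraries (113, 109, 113 and 115 CPM). Ddit3, the pro-apoptotic factor CHOP, differed by 0.36 ± 0.17 and 0.37 ± 0.17 (adjusted p = 0.13 and 0.15, edgeR) at 6.18 to 17.4 CPM.

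Among the translocation genes, 5 of 6 lay below 0 in both genotypes. Sec61b, the β subunit of the channel, had 48.8, 52.4, 58.5 and 75.8 CPM in control centroblasts and 41.5, 37.9, 41.0 and 42.3 CPM in control centrocytes, with no overlap. It was lower in control centrocytes by -0.53 ± 0.14 (1.45-fold, adjusted p = 0.0089, edgeR). In mutants, with 56.4, 74.8, 63.9 and 62.9 CPM in centroblasts and 48.8, 52.8, 67.8 and 50.2 CPM in centrocytes, it differed by -0.23 ± 0.14 (adjusted p = 0.29) and the zones overlapped. Ssr1, Ssr2 and Ssr3, subunits of the translocon-associated complex, differed by -0.36 to -0.18 in both genotypes and did not pass, Ssr4 by 0.15 and 0.20, and the channel's α subunit Sec61a1 by -0.02 and -0.04.

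The degradation genes split. Derl1, a derlin that recruits the ATPase p97 to the ER membrane, had 150, 136, 119 and 146 CPM in control centroblasts and 102, 100, 96.5 and 103 CPM in control centrocytes, with no overlap. It was lower in control centrocytes by -0.46 ± 0.11 (1.38-fold, adjusted p = 0.0047, edgeR), opposite to Derl3, and by -0.26 ± 0.11 in mutants (adjusted p = 0.11). Derl2, the third derlin, differed by 0.13 ± 0.14 and 0.15 ± 0.14. Syvn1 (HRD1, the ubiquitin ligase of the complex) differed by 0.32 ± 0.14 in controls (adjusted p = 0.090) and 0.10 ± 0.14 in mutants, Edem1, which trims mannose from misfolded glycoproteins, by 0.10 ± 0.11 and 0.30 ± 0.11 (adjusted p = 0.57 and 0.083), and Sel1l and Herpud1, which hold the HRD1 complex together, by 0.05 to 0.11.

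Replicates 1 and 2 of each group, those with Y-linked transcripts, were also fitted apart from replicates 3 and 4. Eif2ak3 differed between zones in controls by -1.13 in males and -0.97 in females and in mutants by -0.85 and -1.05, and Derl3 by 1.62 and 1.20 in controls and 1.25 and 0.90 in mutants, all past the threshold. With 2 libraries a group the other calls were partly lost: in control males Hspa5 (0.41, adjusted p = 0.081), Atf4 (-0.28, adjusted p = 0.25) and Sec61b (-0.35, adjusted p = 0.18), in control females Derl1 (-0.41, adjusted p = 0.099), and in mutants of either sex Hspa5, Hsp90b1 and Atf4 (adjusted p 0.064 to 0.40, edgeR). For Sec61b, the genotype difference in centrocytes described below was 0.35 in males and 0.49 in females (adjusted p = 0.25 and 0.086).

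Read against the promoters, all 9 genes with an ER stress response element had zone differences above 0 in both genotypes, with medians of 0.32 in controls and 0.16 in mutants, and all 3 genes called higher were among them. Of the 17 with a window but no element, 11 lay above 0 and 6 below in each genotype (medians 0.10 and 0.06), 0 were called higher and 3 (controls) or 2 (mutants) were called lower. The other 6 genes have no window. Among the 8 other tested genes with the element, 4 were called higher in control centrocytes (Acacb, Adcy3, Alg12 and Pan2) and 0 lower, and in mutants 1 was called higher, Adcy3. Of all genes, 14.9% were called higher and 12.9% lower in controls, and 8.92% and 7.07% in mutants. Acacb had a mean of only 0.357 CPM, and 1700122E12Rik, Xlr3a and Xlr3b, also among the 8, had 0.287, 0.186 and 0.695 CPM. The split was made after the values were known and is a description.

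**Figure D3:**
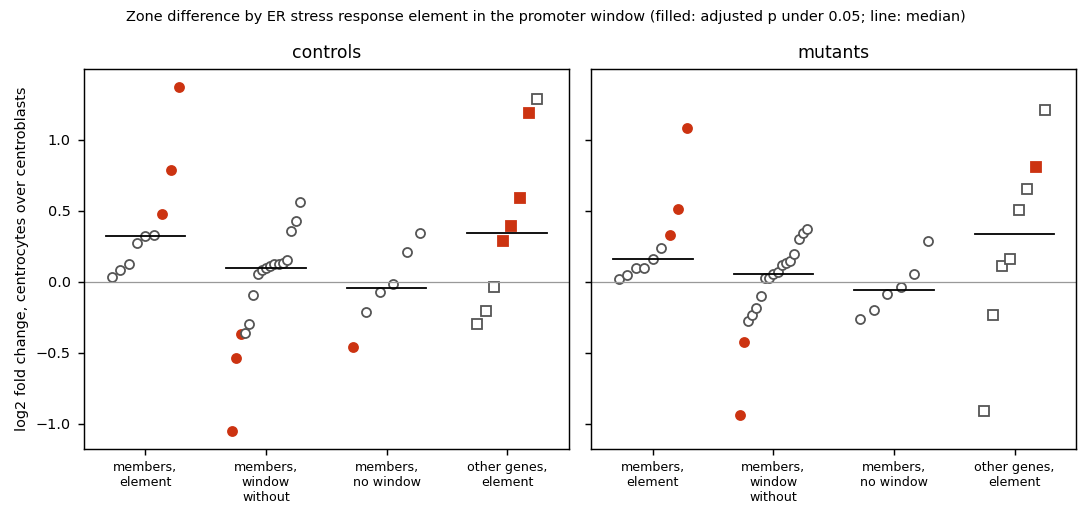
Zone difference (y axis, log2) of members with the element in their promoter window, members with a window but no element, members with no window, and other tested genes with the element (squares), in controls (left) and mutants (right). Filled symbols had an adjusted p under 0.05 and lines are medians; all 9 members with the element lie above 0.

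With a correction of each library for GC content and transcript length, the direction of no called gene changed but the counts did. In controls 13 of 32 genes were called (6 higher, 7 lower; 38.6% of all genes) and in mutants 10 (3 higher, 7 lower; 26.3% of all genes). The translocon-associated genes Ssr1, Ssr2 and Ssr3 were then lower in both zone comparisons, by -0.46, -0.24 and -0.48 in controls and -0.32, -0.25 and -0.33 in mutants (adjusted p 0.00083 to 0.032, edgeR). In mutants Hspa5 (0.30, adjusted p = 0.052) and Hsp90b1 (0.46, adjusted p = 0.051) were not called, but with the replicate block added both were (0.31 and 0.46, adjusted p = 0.018 and 0.017), among 16 of 32 genes (9 higher, 7 lower; 30.4% of all genes). Over all genes the correction moved the balance of calls, from 2270 higher and 1960 lower to 2270 higher and 3616 lower in controls, and from 1360 and 1078 to 1609 and 2404 in mutants.

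Some markers of other cells also differed between the zones, in both directions. Among 19 tested plasma cell markers, which include Derl3 itself and Xbp1, 5 were higher and 3 lower in control centrocytes, and 3 higher and 4 lower in mutant centrocytes. The 3 most abundant did not move together: Jchain and Mzb1 were lower in centrocytes (Jchain by -0.79 and -0.86, Mzb1 by -0.95 and -0.66 in controls and mutants), and Igha was higher in control centrocytes by 1.36. Irf4 was higher by 1.32 and 1.12, and Prdm1 by 1.70 in controls, from 2.00 to 5.69 CPM in centroblasts to 4.95 to 19.7 CPM in centrocytes. Sdc1 (CD138) was at 1.21 to 9.08 CPM and Tnfrsf17 at 0.0525 to 1.01 CPM over all libraries. The summed level of the list was 3197 to 3427 CPM in control centroblasts and 2655 to 3049 CPM in control centrocytes, and 2920 to 3799 and 2251 to 2582 CPM in mutants.

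Of 11 markers of naive follicular B cells, 7 were higher in centrocytes in each genotype, and 1 was lower in controls and 0 in mutants. The sum of the 11 was 748 to 971 CPM in control centroblasts, 1743 to 2075 CPM in control centrocytes, 955 to 1079 CPM in mutant centroblasts and 1817 to 2138 CPM in mutant centrocytes. Their 3 most abundant were Cr2, Fcer2a and Foxp1. Of 20 macrophage markers 1 (Cd68) was higher in control and 6 in mutant centrocytes, with Hmox1, Cd68 and Vcam1 the most abundant. Of 10 tested T cell markers Trac, Lck and Cd5 were higher in centrocytes in both genotypes, and their sum, mostly Lck, Cd5 and Thy1, was 111 to 206 CPM in centroblasts and 220 to 336 CPM in centrocytes, with Cd3e at 0 to 0.364 CPM over all libraries. The 5 tested erythroid markers, led by Hbb-bt, Hbb-bs and Hba-a1, summed to 7.35 to 40.6 CPM and 0 were called between zones. Of 12 germinal centre B cell markers, 2 were higher and 2 lower in each genotype, and their sum, with Ptprc and Pax5 among the most abundant, was 7068 to 9192 CPM over all 16 libraries. None of the 3 most abundant markers of each list was at 0 throughout a group. The part of these cells in the differences of the ER genes was not tested, and in bulk libraries a change in the share of a cell type cannot be told apart from a change in its RNA per cell.

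Genotype had little measurable effect on the 32 genes in centroblasts. In mutant against control centroblasts 0 of 32 passed edgeR's test, against 4.06% of all genes called higher, 6.4% lower and 10.5% in either direction. Hspa5, Calr, Edem1 and Ddit3, 4 of the 32, had an unadjusted p below 0.05. DESeq2 likewise called 0. Libraries of the 2 genotypes overlapped for all 32, while 14.4% of all genes did not overlap. Log2 differences ran from -0.28 ± 0.11 for Edem1, which had the smallest adjusted p (0.14), to 0.36 ± 0.17 for Ddit3 (adjusted p = 0.21). The 95% interval lay within 1.5-fold in both directions for 27 of the 32 and within 2-fold for all 32. Among plasma cell markers 0 were higher and 4 lower in mutant centroblasts, and the summed macrophage markers overlapped (33.1 to 99.6 CPM in controls, 43.0 to 127 CPM in mutants). Of 10 tested T cell markers 2 were higher and 0 lower, and of 11 naive follicular B cell markers 1 was higher and 0 lower. The summed T cell markers were 111 to 176 CPM in controls and 176 to 206 CPM in mutants. For Hspa5, with the levels given above, the difference was 0.25 ± 0.11 (adjusted p = 0.16), and for Eif2ak3 it was 0.07 ± 0.11.

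**Figure D4:**
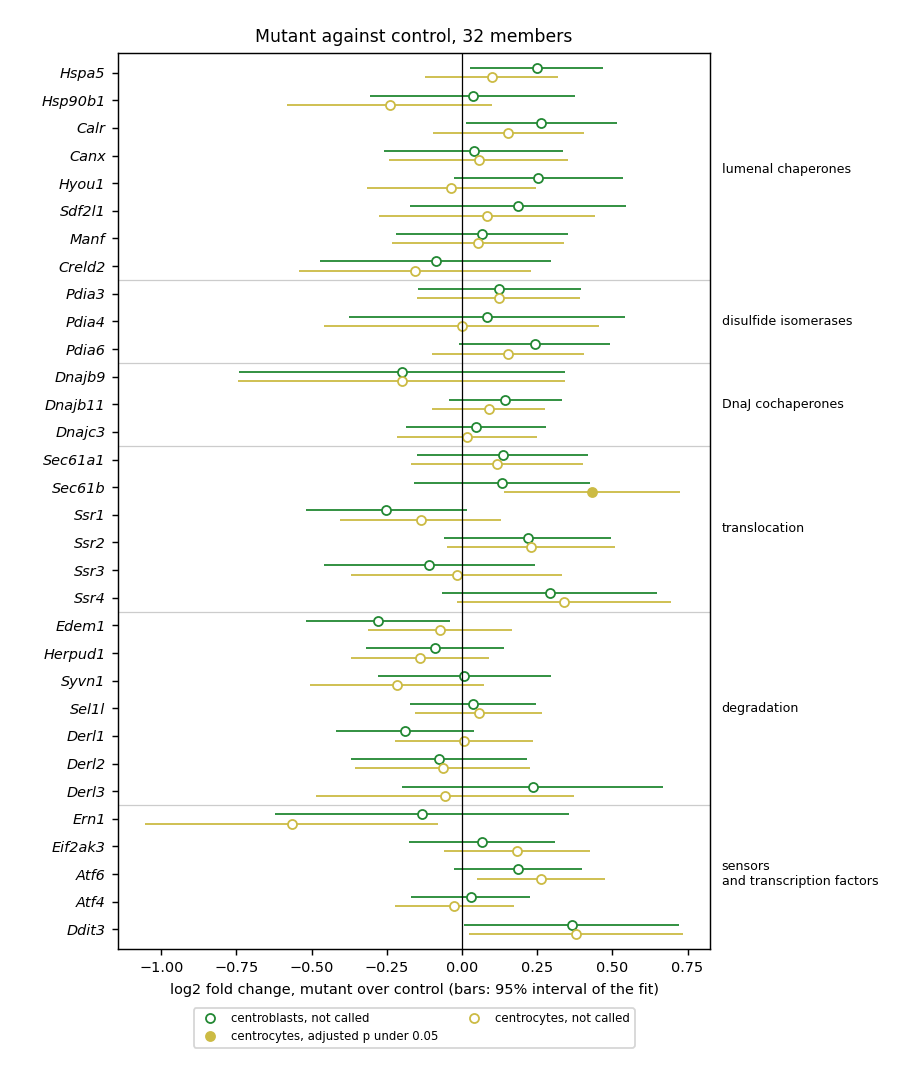
Log2 difference of each of the 32 genes between mutants and controls (x axis) in centroblasts (green, upper) and centrocytes (yellow, lower), grouped by role, with 95% intervals from the edgeR fit. The only filled point, with an adjusted p under 0.05, is Sec61b in centrocytes at 0.43.

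With the GC and length correction 4 of 32 were called higher in mutant centroblasts and 0 lower, while 18% of all genes were called. These were Atf6 (0.37, adjusted p = 0.0013), Hspa5 (0.37, adjusted p = 0.028), Hyou1 (0.31, adjusted p = 0.027) and Calr (0.29, adjusted p = 0.046, edgeR). Over all genes the split went from 619 higher and 976 lower to 1562 higher and 1183 lower.

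In centrocytes 1 of 32 was called between genotypes, Sec61b, higher in mutants, against 7.37% of all genes higher, 9.15% lower and 16.5% in either direction. Its 4 mutant libraries (48.8 to 67.8 CPM) were all above the 4 control libraries (37.9 to 42.3 CPM), and the difference was 0.43 ± 0.14 (1.35-fold, adjusted p = 0.042). Without mutant centrocyte replicates 3 and 4 it was 0.33 (adjusted p = 0.24), and leaving out single libraries ended the call in 11 of 16 fits: control centroblast 2 or 3, mutant centroblast 3 or 4, any control centrocyte, or mutant centrocyte 2, 3 or 4 (adjusted p 0.052 to 0.145). Libraries of the 2 genotypes did not overlap for 2 of 32 genes, Sec61b and Atf6, against 23.5% of all genes. Atf6 had 116, 107, 118 and 116 CPM in control and 132, 134, 121 and 163 CPM in mutant centrocytes, a difference of 0.26 ± 0.10 (adjusted p = 0.086, edgeR), or 0.22 without mutant replicates 3 and 4 (adjusted p = 0.24). Among macrophage markers 2 were higher in mutant centrocytes (Cd68 and Lyz2), and among plasma cell markers 1 was higher and 4 lower, with Igha lower by -2.46 and Prdm1 by -1.35. The T cell, naive follicular B cell and erythroid lists each had 1 marker higher and 0 lower, and the germinal centre list had 2 higher and 1 lower. The most negative value of the 32 was that of Ern1, -0.57 ± 0.23 (adjusted p = 0.10), with 6.53 to 13.6 CPM in controls and 4.45 to 7.79 CPM in mutants. Ern1 passed without control centrocyte replicate 1 (-0.73, adjusted p = 0.036) and in females alone (-1.08, adjusted p = 0.024), was at 0.04 in males alone (adjusted p = 0.95), and was at -0.43 without mutant replicates 3 and 4 (adjusted p = 0.37, edgeR).

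With the GC and length correction 4 of 32 were higher in mutant centrocytes (28.4% of all genes were called): Atf6 (0.46, adjusted p = 0.00017), Sel1l (0.23, adjusted p = 0.020), Canx (0.27, adjusted p = 0.028) and Eif2ak3 (0.29, adjusted p = 0.031). Sec61b was then at 0.22 (adjusted p = 0.088, edgeR). Over all genes the split went from 1123 higher and 1394 lower to 2735 higher and 1587 lower.

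The zone differences were compared between genotypes by the interaction term. It called 0 of 32 genes and 0 of all 15240 (0%), and 0 of 32 had an unadjusted p below 0.05. With DESeq2 it was again 0 of the 32. For Derl3 the interaction was -0.29 ± 0.29, for Hsp90b1 -0.28 ± 0.23, for Hspa5 -0.15 ± 0.15, for Eif2ak3 0.12 ± 0.16 and for Sec61b 0.30 ± 0.20 (adjusted p = 0.999 for each, edgeR), so a zone difference that passed in one genotype and missed in the other was not shown to differ between them. The widest 95% interval, for Dnajb9, ran from -0.77 to 0.76, and the interaction furthest from 0 was that of Ern1, -0.43 ± 0.33.

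Among 130 tested genes of 5 other lists of the pathway, 7 were higher and 37 lower in control centrocytes (33.8% called, against 27.8% of all genes), and 2 were higher and 17 lower in mutant centrocytes (14.6% called, against 16% of all genes). Of 35 tested genes of stress signalling and ATF4 targets, 2 were higher and 13 lower in control centrocytes, and 0 were higher and 11 lower in mutant centrocytes, with medians of -0.29 and -0.26 against 0.005 and 0.02 for all genes. This list had 42.9% of its genes called in controls and 31.4% in mutants. Without mutant centrocyte replicates 3 and 4 the mutant count was 1 higher and 6 lower, and Rtcb (-0.31, adjusted p = 0.15) and Eif2ak4 (-0.39, adjusted p = 0.076, edgeR) were not called. Psat1, of serine synthesis, was lower by -0.63 ± 0.11 (adjusted p = 0.00035) in controls and -0.46 ± 0.11 (adjusted p = 0.0066) in mutants. Asns, asparagine synthetase, was lower by -0.53 ± 0.18 (adjusted p = 0.033) and -0.64 ± 0.18 (adjusted p = 0.018, edgeR). Rtcb, the ligase that joins the spliced XBP1 mRNA, was lower by -0.57 and -0.33, Eif2a by -0.53 in controls, and Eif2ak4 (GCN2, another eIF2α kinase) by -0.31 and -0.49. Nfya, a subunit of NF-Y, was higher by 0.28 and the amino acid transporter chain Slc3a2 by 0.35 in control centrocytes.

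Named after their values were seen, the low-abundance genes Atf3, Chac1 and Trib3 of the stress signalling and ATF4 target list were lower in both genotypes. Ddit3, among the members, lay above 0 (0.36 and 0.37, not called), and Slc3a2 of the list was called higher in controls. An effect of PERK on these genes was not tested. Atf3 had 3.54 to 4.36 CPM in control centroblasts and 0.294 to 0.572 CPM in control centrocytes, a difference of -3.07 ± 0.28 (adjusted p = 6.6e-07), and it differed by -2.69 ± 0.27 in mutants (adjusted p = 2.7e-06, edgeR). Chac1 was lower by -1.34 and -1.54 and Trib3 by -1.14 and -1.59. All centroblast libraries were above all centrocyte libraries for Atf3 in both genotypes.

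Xbp1 had 195, 188, 216 and 276 CPM in control centroblasts and 156, 152, 194 and 215 CPM in control centrocytes, which overlapped, a difference of -0.29 ± 0.14 (adjusted p = 0.12). In mutants it had 228, 231, 288 and 277 CPM in centroblasts and 196, 178, 194 and 203 CPM in centrocytes, which did not overlap, a difference of -0.41 ± 0.14 (adjusted p = 0.047, edgeR). Without mutant centrocyte replicates 3 and 4 the difference in Xbp1 was -0.44 (adjusted p = 0.13). Gene counts do not distinguish its spliced from its unspliced mRNA. Between genotypes Xbp1 differed by 0.23 ± 0.14 in centroblasts and 0.10 ± 0.14 in centrocytes (adjusted p = 0.35 and 0.63).

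**Figure D5:**
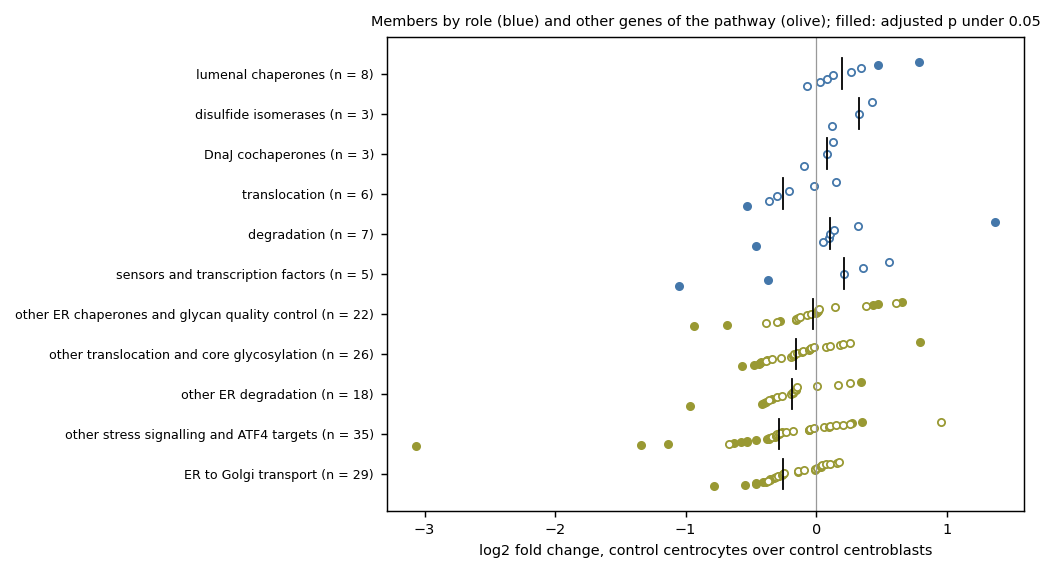
Log2 zone difference in controls (x axis) of the 32 members by role (blue) and of the 5 lists of other pathway genes (olive); each point is a gene, filled points had an adjusted p under 0.05 and vertical lines are medians. The other stress signalling genes and ER to Golgi genes have medians of -0.29 and -0.26.

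Of 29 genes of ER to Golgi transport, 0 were higher and 10 lower in control centrocytes, and 0 and 2 in mutants, which is 34.5% and 6.90% of the list. Sec23b and Copb2, coat subunits of forward and return vesicles, were lower in both genotypes (Sec23b by -0.54 and -0.37, Copb2 by -0.46 and -0.33, the latter -0.39 with adjusted p = 0.051 without mutant replicates 3 and 4), and Sar1b, the GTPase that starts coat assembly, by -0.78 in controls. Of 18 other degradation genes 1 was higher and 5 lower in controls, and 0 and 2 in mutants (33.3% and 11.1%). Without mutant centrocyte replicates 3 and 4 the mutant count was 0 higher and 1 lower, and Nploc4 (-0.32, adjusted p = 0.11, edgeR) was not called. Ube2j1, the membrane-bound ubiquitin-conjugating enzyme of the pathway, was lower by -0.97 ± 0.11 (adjusted p = 1.1e-05) and -0.80 ± 0.11 (adjusted p = 0.00011, edgeR).

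Among 22 other chaperones and glycan quality control genes, 3 were higher and 3 lower in control centrocytes and 1 and 1 in mutants (27.3% and 9.09%). Txndc11, a thioredoxin domain protein, was lower by -0.93 ± 0.10 and -0.78 ± 0.10 (adjusted p = 4.7e-06 and 3.8e-05), Mogs, the first glucosidase of glycan trimming, was higher in controls by 0.66, and Dnajc1 was higher in both by 0.43 and 0.38. Of 26 other translocation and core glycosylation genes 1 was higher and 6 lower in controls, and 1 and 1 in mutants (26.9% and 7.69%), with Tram2 lower in both (-0.57 and -0.78).

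Between genotypes, 3.85% of the 130 genes were called in centroblasts and 10.8% in centrocytes, against 10.5% and 16.5% of all genes. In centroblasts 1 was called higher (Cnpy2, 0.41) and 4 lower: Ube2j1 by -0.59 ± 0.11 (adjusted p = 0.0022), Tram2 by -0.60 ± 0.14 (adjusted p = 0.011), Dnajc1 by -0.57 ± 0.12 (adjusted p = 0.0043) and, named after its value was seen, Cebpb by -0.85 ± 0.26 (adjusted p = 0.047, edgeR). In centrocytes Ube2j1 (-0.42), Tram2 (-0.81) and Dnajc1 (-0.62) were again lower, with Nfya (-0.37) and Sec24d (-1.10), and 9 genes were higher. The 9 included the cyclophilin Ppib (0.58), Cnpy2 (0.51), the signal recognition particle subunit Srp14 (0.52), the oligosaccharyltransferase subunit Krtcap2 (0.53) and Ppp1r15a (0.52), the phosphatase subunit that reverses eIF2α phosphorylation. Without mutant centrocyte replicates 3 and 4, Ube2j1 (-0.56), Tram2 (-0.74), Dnajc1 (-0.54), Cnpy2 (0.49) and Ppp1r15a (0.81) were called (adjusted p 0.0068 to 0.032), while Ppib, Srp14, Krtcap2, Nfya and Sec24d were not (adjusted p 0.088 to 0.19, edgeR).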

How the data were processed

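RNA was measured by sequencing of 16 libraries made with Illumina TruSeq kits, per the labels' protocols. Values were whole-number counts per gene, deposited by the authors as raw counts; the submitters' processing notes name Trim Galore, cutadapt, STAR 2.5.3a and Subread featureCounts 1.4.5-p1 on mm10. The counting options, strand setting included, are not given in the sources used here, so counts of overlapping and antisense genes cannot be separated.

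From these counts, 92 spike-in rows with 3 reads in all were left out, and genes were filtered (filterByExpr), scaled (TMM) and tested in edgeR 4.0.16 (R 4.3.3, quasi-likelihood test, 1 mean per group over all 16 libraries, 12 residual degrees of freedom), with Benjamini-Hochberg adjustment over 15240 genes at 0.05. No 2 libraries held identical columns. The comparisons were genotype within each cell type, zone within each genotype, and their interaction. The p-values measure the spread between libraries. Standard errors are the log2 fold change divided by the square root of F. Levels are CPM, and per kilobase of GENCODE M21 exon between genes. The fit was tested on simulated data.

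The alternatives were DESeq2 1.42.0, DESeq2 size factors in edgeR, 2 other low-count filters, the compared groups alone, a replicate block, sex as a covariate, immunoglobulin genes left out, an offset for GC content and length (known for 96.8% of tested genes and all 32 members), that offset with the block, mutant centrocyte libraries 3 and 4 left out, and each library left out. Males alone, females alone and the pathway lists without mutant centrocyte libraries 3 and 4 were chosen after seeing the data. Same-numbered mutant libraries deviated together between zones (correlations of 0.263 to 0.327 over genes), so the number was taken to pair the mutant zones; the numbers follow sex, and differently numbered mutant libraries of 1 sex reached 0.325, so the pairing cannot be told apart from sex. The control zones (-0.006 to 0.452) and genotypes (-0.089 to 0.344) did not meet the minimum of 0.1 in every pair.

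All 32 members are reported, and of each pathway list up to 3 called genes per direction with a mean log2 CPM of at least 2, of each marker list its 3 most abundant genes, and Xbp1, Ezh2 and the sort genes; a few genes that this rule names are not reported here. The members and lists were chosen with earlier results of these data known. Naive B cells, which the series' design text also names, were not analysed here.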

Additional observations from a re-analysis of the deposited data

Results flagged for a closer look

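In 8 of the 128 groups of 4 libraries formed by the 32 genes and 4 groups, 1 library stood apart from the other 3 by most of the group's range (5 high, 3 low), and chance alone gives about 5% of groups. In control centroblasts, replicate 1 had the highest Dnajb9 level, 19.6 CPM against 9.13 to 10.8 CPM, and replicate 4 the highest Manf level, 125 CPM against 89.2 to 92.7 CPM. In control centrocytes, replicate 2 had the lowest Atf6 level, 107 CPM against 116 to 118 CPM, and replicate 4 the highest Dnajc3 level, 121 CPM against 103 to 106 CPM. In mutant centroblasts, replicate 4 had the lowest Dnajc3 level, 80.5 CPM against 108 to 113 CPM. In mutant centrocytes, replicate 1 had the highest Derl3 level, 52.4 CPM against 45.3 to 46.3 CPM, and the lowest Ssr2 level, 103 CPM against 121 to 124 CPM, and replicate 3 had the highest Derl2 level, 64.2 CPM against 45.8 to 48.6 CPM. Derl3 is the only one of these genes with a call, and it kept that call without this library.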

How the results depend on the processing

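Of the 13 called member results, 10 were called with every single library left out, and no result changed direction while called. The count of members called in control zones (7) was 12 with the replicate block (8 higher, 4 lower), which added Hyou1, Pdia4, Pdia6, Syvn1 and Ern1. It was 13 with the GC and length offset, 16 with both, and 7 to 12 with single libraries left out, 12 without control centroblast replicate 4. Calls over all 15240 genes rose as well, from 2270 higher and 1960 lower to 2562 and 1944 with the block. They were 2270 and 3616 with the offset and 2606 and 3875 with both. The count in mutant zones (5) was 5 with the replicate block, 3 with the compared groups alone, 10 with the offset, 16 with offset and block, 2 without mutant centrocyte libraries 3 and 4, 2 in males alone, 2 in females alone, and 3 to 7 with single libraries left out. Of all genes, 16% were called in mutant zones, 26.3% with the offset and 30.4% with offset and block. Without mutant centrocyte libraries 3 and 4, 1167 were higher and 727 lower of 16029 genes. The count for genotype in centroblasts (0) was 0 with the block, 4 with the offset, 4 with offset and block, 3 in males alone (1 higher, 2 lower), and 0 to 1 with single libraries left out, 1 without control centroblast replicate 4, when Calr was higher by 0.38 (adjusted p = 0.035, edgeR). Of all genes, 10.5% were called in centroblasts between genotypes and 18% with the offset. With offset and block 1672 were higher and 1262 lower, and in males alone 1046 and 1158 of 15390. The count for genotype in centrocytes (1) was 1 with the block, 4 with the offset, 4 with offset and block, 0 without mutant centrocyte libraries 3 and 4, 0 in males alone, and 0 to 1 with single libraries left out; without mutant centrocyte replicate 3, Eif2ak3 was higher by 0.30, and without control centrocyte replicate 1, Ern1 was lower by -0.73 (adjusted p = 0.040 and 0.036, edgeR). In females alone the count was 1, Ern1, lower. Of all genes, 16.5% were called in centrocytes between genotypes and 28.4% with the offset. With offset and block 2746 were higher and 1731 lower. The interaction count was 0 under every setting, from 0 to 0 with single libraries left out. Beyond the mutant-zone calls of Hspa5 (lost) and Pdia4 (gained), the block changed no call where the numbers were taken to pair the samples. The cause of these shifts was not tested. Most members had over 30 CPM in every library, at 35230563 counts or more, and counting error weighs most on Ern1, Dnajb9 and Ddit3, all below 20 CPM.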

Other observations

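The 3 derlins, homologous ER membrane proteins of the degradation channel, went different ways between zones. In control centrocytes Derl3 was higher by 1.37 ± 0.21, Derl1 lower by -0.46 ± 0.11 and Derl2 at 0.13 ± 0.14 (adjusted p = 0.00013, 0.0047 and 0.51, edgeR). Per kilobase of exon Derl1 was at 34.5, Derl3 at 17.3 and Derl2 at 6.23 CPM per kb over all libraries. Without division by exon length Derl2 (50.2 CPM) was above Derl3 (34.5 CPM). Among the 18 other degradation genes, Ube2j1, Ube2j2, Nploc4 and Vcp were lower in control centrocytes by -0.97, -0.41, -0.40 and -0.33, and Ube2g2 by -0.38, while Aup1 was higher by 0.35. Vcp and Ube2g2 were named after their values were seen.

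Ube2j1 was lower both in centrocytes and in mutants: its mean was 372 ± 61 CPM in control centroblasts, 246 ± 21 CPM in mutant centroblasts, 190 ± 7.0 CPM in control centrocytes and 142 ± 16 CPM in mutant centrocytes (SD, n = 4 each). Each of these 4 comparisons passed the test in edgeR, with log2 differences of -0.97 and -0.80 between zones and -0.59 and -0.42 between genotypes, and the comparisons share libraries.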
